A study of Mus musculus with 4 samples.

Results

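Cell cycle and proliferation genes were examined in ILC2s (group 2 innate lymphoid cells), which live in tissue and secrete type 2 cytokines, sorted from the lungs of C57BL/6 mice treated with bleomycin, a drug that injures the lung. The set holds 46 genes, taken by exact gene name from the 38697 genes of the authors' deposited table, and each name matched 1 row. All 46 have an adjusted p, as do 19193 genes in all. The KO group was 2 samples of genotype R5/+Nrp1f/f, and the WT group was 2 samples of genotype R5/+. Both groups carry R5, a reporter allele of the Il5 locus that also encodes Cre recombinase, so deletion of the floxed Nrp1 gene depends on a cell having switched on Il5. Each sample was a pool of 3 to 4 mice, and no ages are stated in the labels. The deposited columns of values per library carry codes that match no sample label, so values per sample are not given and p-values are those of the authors' comparison of the genotypes.

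A dividing cell enters the cycle when D-type cyclins bind CDK4 or CDK6 and inactivate the retinoblastoma protein, which frees E2F factors to switch on the genes of DNA replication. Replication starts at origins licensed by the MCM helicase, and mitotic genes are switched on later under the MuvB, B-MYB and FOXM1 factors. Resting lymphocytes hold most of these transcripts at low levels and raise them when they divide, as ILC2s do after alarmin signals. The members are described in that order, as 5 genes of G1 entry, 20 genes of the G1/S transition and replication, and 21 genes of G2 and mitosis.

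The phase groups also differ in promoter sequence, which the choice of members did not use. RefSeq promoters of build GRCm38.p6, from 250 bases before to 50 after a gene's start, were found for 36 of the 46 members. Aurkb, Ccna2, Ccnd1, Ccnd2, Ccne2, Foxm1, Gins2, Mcm4, Stmn1 and Tpx2 had no entry. Letters of the cell cycle genes homology region (CHR), the element bound by MuvB complexes, were searched as TTTGAA or TTCGAA on either strand. They occurred in 12 of 16 G2/M members (75.0%) and in 3 of 17 G1/S members (17.6%), against 17.4% of the 12468 tested genes with a promoter. Letters of an E2F site were searched on either strand as TTTGGCGC or TTTCCCGC or TTTGCCGC or TTTCGCGC. They occurred in 1 of 16 G2/M members (6.25%) and in 9 of 17 G1/S members (52.9%), against 4.09% of tested genes. CCAAT, searched on either strand, occurred in 14 of 16 G2/M members (87.5%) and in 11 of 17 G1/S members (64.7%), against 42.0% of tested genes. Of the 3 G1 entry members with a promoter, 0 held CHR or E2F letters and 1 held CCAAT. A gene with several promoters was counted if any of them held the letters, and a match describes the letters and is not a measured binding site.

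The stretches from -190 to -1 relative to the start are shown for the G1/S members with the lowest and highest log2 fold change and for 3 G2/M members on which the results below turn, with CHR and E2F letters in capitals. Where a gene had several promoters, the one with the most CHR and E2F matches was printed. For Mcm7, another promoter held CCAAT but no CHR or E2F letters. The printed Mcm7 stretch lies on the minus strand at chr5:138171884-138172073 and holds 1 CHR match, TTCGAA, followed by 1 E2F match, GCGGGAAA. Cdc6 lies on the plus strand at chr11:98907961-98908150 and holds the same E2F letters. Cdk1, on the minus strand at chr10:69352913-69353102, holds 1 E2F match upstream of 2 CHR matches. Top2a, on the minus strand at chr11:99024190-99024379, holds 4 CHR matches, and Mki67, on the minus strand at chr7:135716380-135716569, holds 2. No CHR match overlapped an E2F match in these stretches.
Mcm7: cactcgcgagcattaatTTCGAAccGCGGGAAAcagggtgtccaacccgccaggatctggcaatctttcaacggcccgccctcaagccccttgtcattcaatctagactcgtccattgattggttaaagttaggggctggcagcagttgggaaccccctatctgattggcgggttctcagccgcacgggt
Cdc6: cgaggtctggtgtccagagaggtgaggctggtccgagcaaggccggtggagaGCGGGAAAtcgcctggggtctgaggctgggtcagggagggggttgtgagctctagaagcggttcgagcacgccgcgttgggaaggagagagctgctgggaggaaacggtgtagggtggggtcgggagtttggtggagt
Cdk1: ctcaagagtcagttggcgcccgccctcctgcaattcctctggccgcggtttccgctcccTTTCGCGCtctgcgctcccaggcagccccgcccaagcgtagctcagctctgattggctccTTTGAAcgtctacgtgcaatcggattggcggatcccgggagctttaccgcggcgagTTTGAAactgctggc
Top2a: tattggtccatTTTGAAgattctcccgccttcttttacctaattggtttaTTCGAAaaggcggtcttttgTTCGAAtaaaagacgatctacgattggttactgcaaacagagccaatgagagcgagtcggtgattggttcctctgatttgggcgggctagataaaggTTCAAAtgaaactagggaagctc
Mki67: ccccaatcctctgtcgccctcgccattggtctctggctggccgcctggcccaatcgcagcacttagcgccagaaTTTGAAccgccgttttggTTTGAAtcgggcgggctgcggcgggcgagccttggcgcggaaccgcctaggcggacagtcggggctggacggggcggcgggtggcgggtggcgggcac

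The label check came from the targeted gene. Nrp1 (ENSMUSG00000025810) had a log2 fold change of -1.18 ± 0.21 (SE) and an adjusted p of 1.27e-04, both from the authors' deposited table. Negative values mean lower in KO throughout, since the table's name puts WT first and its sign was turned. The table does not state its numerator, and the opposite reading would turn every direction given here. It would also place Nrp1, the gene targeted for deletion, higher in KO than in WT.

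No cell cycle gene passed the authors' test. At an adjusted p under 0.05, 0 of the 46 members were called higher in KO and 0 lower, where 0.453% of the 19193 genes tested were called higher, 0.099% lower and 0.552% in either direction. At an unadjusted p under 0.05, 0 members were higher, against 9.62% of all genes. At that threshold 4 members were lower (Ccnd3, Ccnd2, Mcm7 and Mcm4), against 3.95% of all genes. Both unadjusted shares vary with abundance, as given below, so neither is a like-for-like background for the members. The smallest adjusted p among the members was 0.200. The members' median log2 fold change was 0.05, and over all genes tested it was 0.08. The 95% interval of the fold change lay within 2-fold in both directions for 18 of the 46 members (39.1%) and for 35.6% of all genes, and within 1.5-fold for 2 members, Cdk6 and Pcna.

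**Figure D1:**
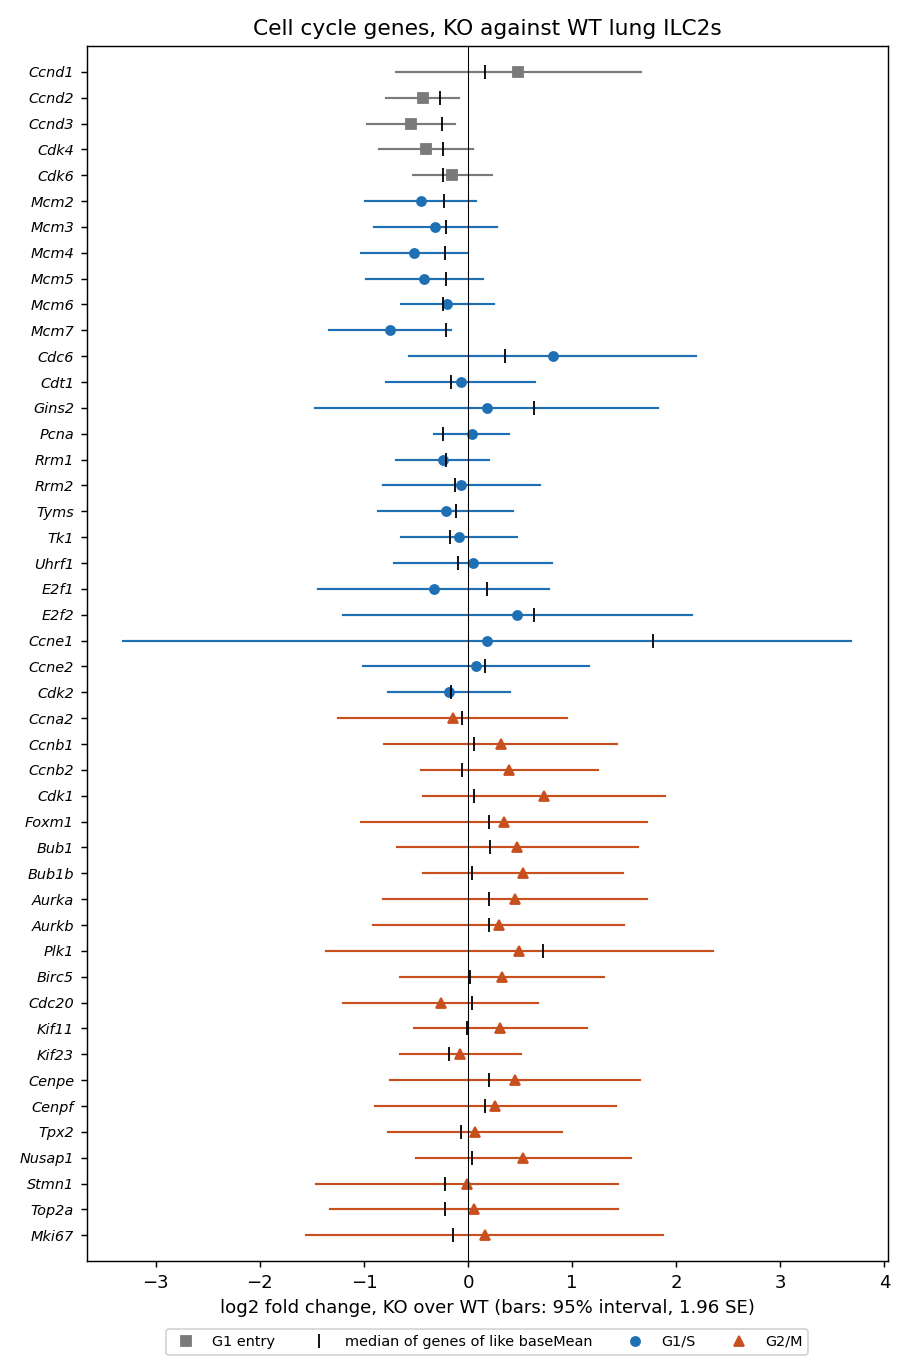
Log2 fold change of the 46 members, KO over WT (x axis), by gene (y axis), with bars for the 95% interval and ticks for the median of genes of like baseMean. The intervals of Ccnd2, Ccnd3, Mcm4 and Mcm7 lie below 0, 0 members passed an adjusted p under 0.05, and 17 of the 21 G2/M points lie above 0.

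Fold changes in this table vary with abundance, which bears on every direction below and on the unadjusted shares above. Abundance is given as baseMean, the authors' mean normalized count over the libraries. Abundant genes, the 2480 whose baseMean reached 1000, had a positive log2 fold change in 7.10% of cases and a median of -0.25. In the 4845 genes between a baseMean of 30 and 200, 62.2% of values were positive and the median was 0.17. At an unadjusted p under 0.05, 940 of 4523 genes between a baseMean of 10 and 30 were higher, and 35 of 4914 between 200 and 1000. Lower at that threshold were 207 of those 4914 genes and 536 of the 2480 abundant genes. Ccnd2 and Ccnd3 are among the abundant genes, and Mcm4 and Mcm7 lie between 200 and 1000. Each member is therefore also given as its difference from a running median over genes of like baseMean, which takes 250 genes on either side.

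**Figure D2:**
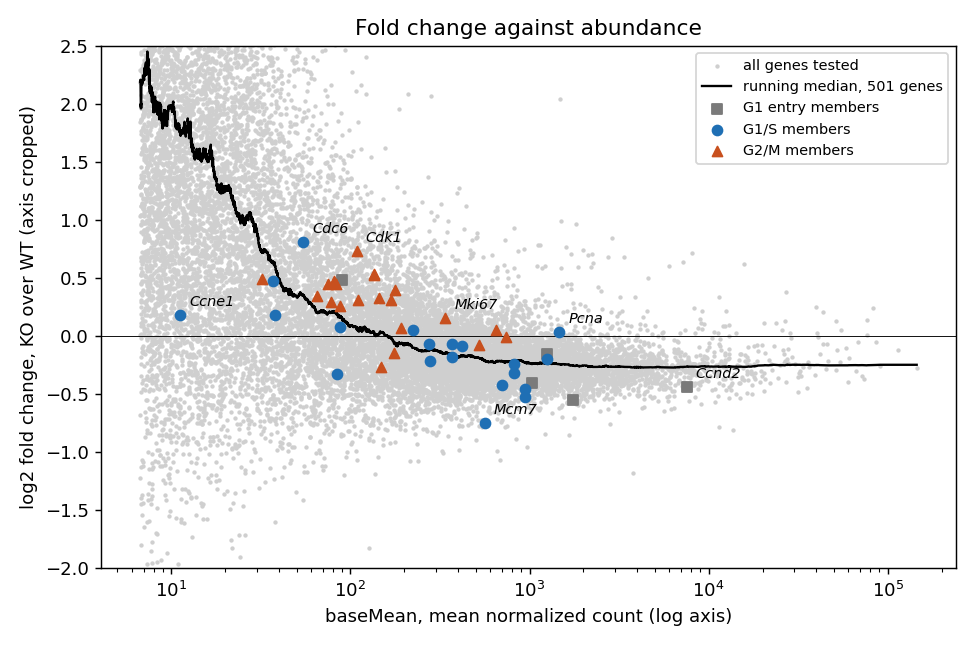
Log2 fold change, KO over WT (y axis, cropped), against baseMean (x axis, log), with all genes tested in grey and the running median as a line. The line stands above 0 at low baseMean and near -0.25 beyond a baseMean of 1000, Mcm7 stands at -0.53 and Cdk1 at 0.68 relative to it.

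Among the genes of G1 entry 0 passed the test, and Ccnd2, which encodes cyclin D2, had the highest level per kb of all members. Per kb of exon, Ccnd2 made up 78.6% of the summed baseMean of the 3 D cyclins, Ccnd3 19.6% and Ccnd1 1.86%. Cdk4 stood 3.55 times as high per kb as Cdk6. Ccnd3 (chromosome 17, 47505051 to 47599691, mm10) had a log2 fold change of -0.55 ± 0.22 (SE) and an adjusted p of 0.200, both from the authors' deposited table. The deposited values imply mean normalized counts of 1422 in KO and 2080 in WT for Ccnd3. These genotype means, here and below, are derived from baseMean and the fold change with equal weight of the genotypes. Ccnd2 (chromosome 6, 127125162 to 127152193) stood at -0.44 ± 0.18, with adjusted p = 0.227 per the authors' deposited table and implied means of 6414 in KO and 8675 in WT. Relative to genes of like baseMean, Ccnd3 stood at -0.30 and Ccnd2 at -0.17. The catalytic partners stood at -0.41 ± 0.23 for Cdk4 and -0.15 ± 0.19 for Cdk6 in the authors' deposited table. Relative to genes of like baseMean Cdk6 stood above 0, at 0.09, and Cdk4 below, at -0.17. Ccnd1, encoding cyclin D1, had a baseMean of 89.4 and a log2 fold change of 0.48 ± 0.60 in the authors' deposited table. Exons of genes on the opposite strand cover 23.4% of the exonic length of Ccnd1 and 19.7% of that of Cdk4. The kits are not described as keeping strand, so reads of these overlaps cannot be assigned.

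The MCM helicase genes encode the hexamer that licenses origins and unwinds DNA. All 6 had a log2 fold change below 0 as deposited, with a median of -0.44, and 5 of 6 lay below genes of like baseMean, with a median difference of -0.22. Mcm6 was the exception, at 0.04 relative to such genes, and it was also the one of the 6 above 0, at 0.05, after centring on abundant genes. Mcm7 (chromosome 5, 138164583 to 138172422, mm10) was lowest at -0.75 ± 0.30, with adjusted p = 0.205 per the authors' deposited table and a 95% interval of 0.40 to 0.89 for the fold KO over WT. Its implied means were 422 in KO and 708 in WT, and exons of Ap4m1 on the opposite strand cover 7.25% of its exonic length. Exons of Cops6, also on the opposite strand, cover 1.45%. The baseMean was 98.1 for Ap4m1 and 1190 for Cops6, against 565 for Mcm7. In the authors' deposited table Mcm4 stood at -0.52 ± 0.26 and its adjusted p was 0.352, with implied means of 771 in KO and 1106 in WT. Mcm2 (-0.46 ± 0.27), Mcm5 (-0.42 ± 0.29), Mcm3 (-0.31 ± 0.30) and Mcm6 (-0.20 ± 0.23) had intervals that span 0 in the authors' deposited table. Per kb of exon the 6 differed 2.10-fold, with 268 for Mcm6 at the top and 128 for Mcm7 at the bottom. None of the 6 passed the test, and all are read from the same 4 libraries.

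The loaders of that helicase showed wider errors. Cdc6, which with CDT1 loads MCM at origins, had the highest log2 fold change of all members in the authors' deposited table at 0.81 ± 0.70, with adjusted p = 0.652 and a baseMean of 54.4. Cdt1 itself stood at -0.07 ± 0.36 in the authors' deposited table, with implied means of 359 in KO and 377 in WT. Gins2, a subunit of the GINS complex that joins the active helicase, stood at 0.18 ± 0.84 in the authors' deposited table, or -0.46 relative to genes of like baseMean. Exons of Gse1 on the opposite strand cover 67.3% of the exonic length of Gins2, so its value is uncertain.

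The genes of nucleotide supply and of the replication fork lay close to 0. Pcna, the sliding clamp of the replicative polymerases, was the most precisely measured of all members apart from Ccnd2. It had a log2 fold change of 0.03 ± 0.18 in the authors' deposited table, with implied means of 1486 in KO and 1452 in WT, and its 95% interval runs from 0.80 to 1.31 for the fold. Rrm1 and Rrm2, subunits of ribonucleotide reductase, stood at -0.24 ± 0.23 and -0.06 ± 0.39 in the authors' deposited table. Tyms, thymidylate synthase, stood at -0.21 ± 0.33 and Tk1, thymidine kinase, at -0.08 ± 0.28 in the authors' deposited table. Uhrf1, which guides maintenance DNA methylation at the fork, stood at 0.05 ± 0.39 in the authors' deposited table. Adjusted p in these 6 genes was at least 0.688. Relative to genes of like baseMean, 4 of the 6 lay above and 2 below, with a median of 0.07.

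The E2F and cyclin E genes drive entry into S phase, and their baseMean values were under 100 apart from that of Cdk2. E2f1 and E2f2 encode activating E2F factors, and stood at -0.33 ± 0.57 and 0.47 ± 0.85 in the authors' deposited table. Ccne1 and Ccne2 encode the E cyclins that activate CDK2. Ccne1, with a baseMean of 11.2, stood at 0.18 ± 1.78 in the authors' deposited table, an interval that runs from 0.10 to 12.8 for the fold. Ccne2 stood at 0.08 ± 0.56 and Cdk2 at -0.18 ± 0.30 in the authors' deposited table. Exons of Ints8 on the opposite strand, a gene with a baseMean of 944, cover 17.4% of the exonic length of Ccne2, which itself had a baseMean of 87.3. All 5 lay below genes of like baseMean, with a median difference of -0.16, and 0 passed the test.

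Among the mitotic cyclins and their regulators, Cdk1 had the highest value of the G2/M members. Cdk1 (chromosome 10, 69335146 to 69352938, mm10), the kinase that drives mitotic entry, stood at 0.73 ± 0.59, with adjusted p = 0.619 per the authors' deposited table. Its implied means were 135 in KO and 81.4 in WT, and the 95% interval of its fold runs from 0.74 to 3.72. The B cyclins that activate CDK1 stood at 0.40 ± 0.43 for Ccnb2 and 0.31 ± 0.57 for Ccnb1 in the authors' deposited table. Ccna2, the cyclin of S phase and G2, stood at -0.15 ± 0.56 per the authors' deposited table, and 12.5% of its exonic length overlaps a gene of the opposite strand. Foxm1, the transcription factor of mitotic genes, stood at 0.34 ± 0.70 in the authors' deposited table. Of these 5, 4 lay above genes of like baseMean.

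The kinases and checkpoint genes of mitosis had a similar range. Bub1b and Bub1, the spindle checkpoint kinases, stood at 0.53 ± 0.49 and 0.47 ± 0.59 in the authors' deposited table. Aurka, which acts at spindle poles, stood at 0.45 ± 0.65 in the authors' deposited table. Aurkb, the kinase of the chromosomal passenger complex, stood at 0.29 ± 0.62, and Birc5, which encodes the survivin subunit of that complex, at 0.33 ± 0.50 in the authors' deposited table. Plk1, polo-like kinase, stood at 0.49 ± 0.95 in the authors' deposited table at a baseMean of 32.0, below the running median of 0.73 of genes of like baseMean. Cdc20, the activator of the anaphase-promoting complex, was the lowest G2/M member at -0.26 ± 0.48 in the authors' deposited table. Its implied means were 135 in KO and 162 in WT. The smallest adjusted p of the 7 was 0.684.

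The spindle, kinetochore and chromosome genes lay above genes of like baseMean in 9 of 9 cases, by 0.10 to 0.50, and 0 passed the test. Nusap1, a spindle-associated protein, was highest at 0.53 ± 0.53 in the authors' deposited table. The kinetochore genes Cenpe and Cenpf stood at 0.45 ± 0.61 and 0.26 ± 0.59 in the authors' deposited table. The motor Kif11 stood at 0.31 ± 0.42, the cytokinesis motor Kif23 at -0.07 ± 0.30 and Tpx2, which activates Aurora A, at 0.07 ± 0.43 in the authors' deposited table. The widely used proliferation markers lay near 0 with wide errors. Mki67, which encodes Ki-67, stood at 0.16 ± 0.88 in the authors' deposited table, with implied means of 356 in KO and 319 in WT. Top2a, topoisomerase II alpha, stood at 0.06 ± 0.71 and the microtubule regulator Stmn1 at -0.01 ± 0.74 in the authors' deposited table.

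These errors set 3 G2/M genes apart from the other members. The standard error was 3.13 times the running median of genes of like baseMean for Stmn1, 2.86 times for Top2a and 2.79 times for Mki67. In the other 43 members the ratio ran from 0.94 to 1.35, with Ccna2 at the top. Of all genes tested, 242 (1.26%) had a ratio over 1.5, and 216 (1.13%) had a ratio of at least 2.5. How the authors' fit set these errors is not given. A ratio near 1 therefore does not show that a gene varied little between pools. Of 62 other mitotic genes and 60 other replication genes tested, 0 had a ratio over 1.5. With these errors the interval of the fold runs from 0.34 to 3.66 for Mki67, 0.40 to 2.72 for Top2a and 0.36 to 2.72 for Stmn1. A difference of 2-fold in either direction lies inside each of these intervals. Which pools the spread came from was not analysed here. Among marker lists of other cells, a ratio over 1.5 was found in 7 of 10 fibroblast, 5 of 9 lung epithelial and 4 of 7 erythroid genes tested. It was found in 1 of 8 endothelial, 1 of 12 macrophage and monocyte, 2 of 12 B and plasma cell and 0 of 11 T cell genes, and in 0 of 16 ILC2 genes.

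**Figure D3:**
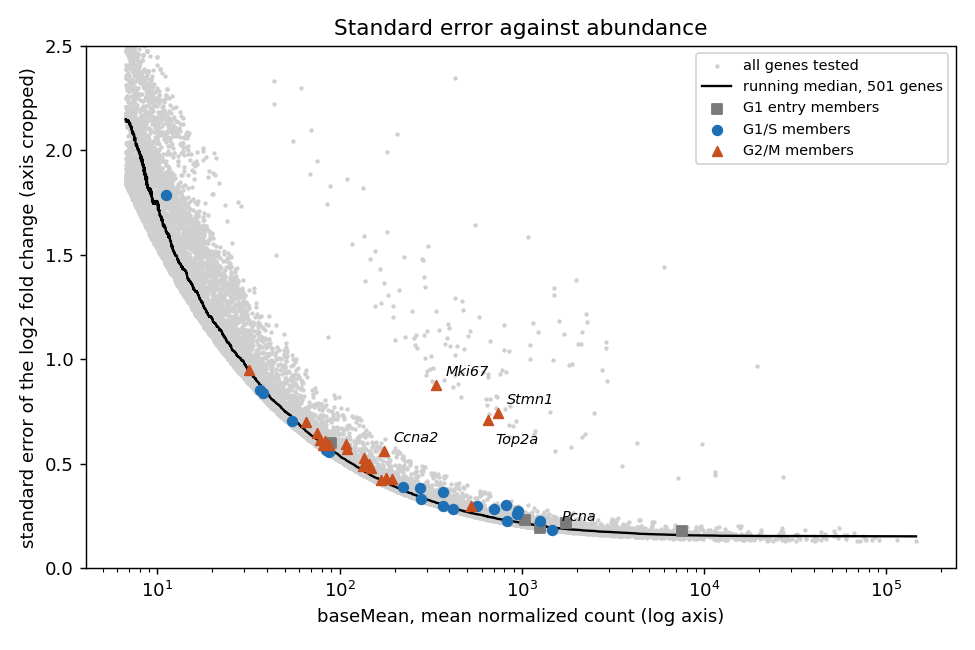
Standard error of the log2 fold change (y axis, cropped) against baseMean (x axis, log), with all genes tested in grey and their running median as a line. Mki67, Top2a and Stmn1 stand at 2.79 to 3.13 times the line, and the other 43 members at 0.94 to 1.35 times the line.

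Set side by side, G2/M members stood above G1/S members. The median log2 fold change was 0.31 over the 21 G2/M members and -0.13 over the 20 G1/S members, a difference of 0.44 that was not tested. Values above 0 were seen in 17 of 21 G2/M members (81.0%) and 7 of 20 G1/S members (35.0%), against 54.0% of all genes tested. Abundance differs between the phases, with a median baseMean of 135 for G2/M and 369 for G1/S members. Relative to genes of like baseMean the medians were 0.25 for G2/M and -0.09 for G1/S members, a difference of 0.35. Relative to those genes 18 of 21 G2/M members (all but Ccna2, Cdc20 and Plk1) and 7 of 20 G1/S members lay above 0. Among members with a baseMean under 200 the medians of this difference were 0.25 for 17 G2/M genes and -0.31 for 6 G1/S genes. Among those of 200 and over they were 0.24 for 4 G2/M genes and -0.03 for 14 G1/S genes. Of these 4 G2/M genes, 3 are Mki67, Top2a and Stmn1, and the median standard error of the 4 was 0.72, so this stratum says little. Median standard errors were 0.59 for G2/M and 0.32 for G1/S members, and these are errors of single genes, not of the medians. Members of one phase rise and fall together in dividing cells and were read from the same 4 libraries, so they are not independent measurements. Centring on abundant genes adds 0.25 to each value. On that scale 20 of 21 G2/M and 14 of 20 G1/S members were above 0, with medians of 0.56 for G2/M and 0.12 for G1/S members, so the G1/S median turned its sign.

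**Figure D4:**
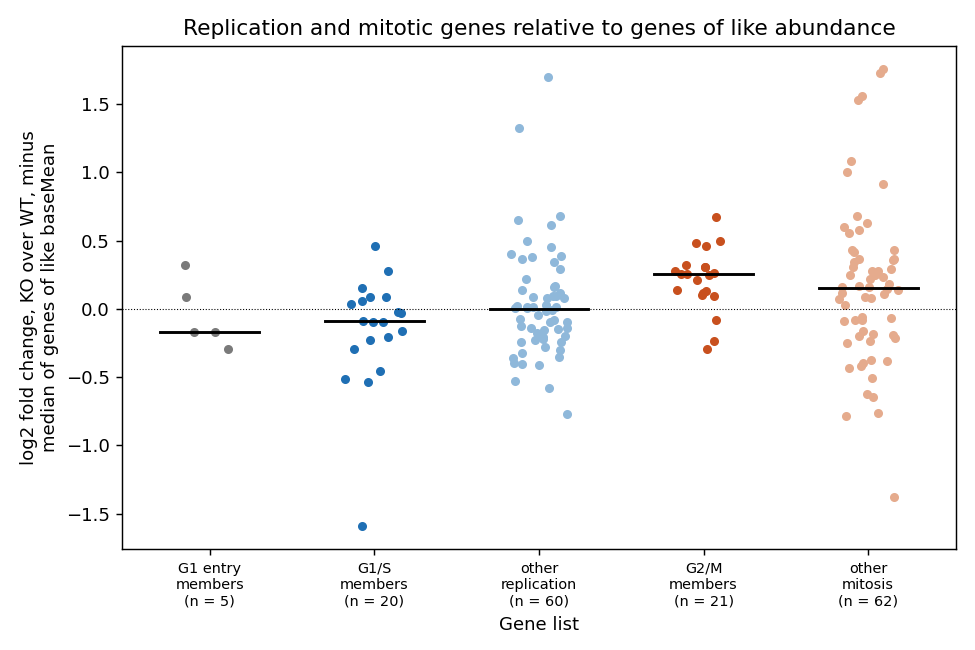
Log2 fold change, KO over WT, minus the median of genes of like baseMean (y axis), for each gene of 5 lists (x axis), with a line at the median. Medians were 0.25 for G2/M members and 0.15 for other mitotic genes, and -0.09 for G1/S members and -0.00 for other replication genes.

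Genes of the same processes outside the set also had 0 calls, and as a median the mitotic ones lay above genes of like baseMean while the replication ones lay level with them. Of 62 other mitotic genes tested, 0 passed the test, 40 were above 0, and the median was 0.24, or 0.15 relative to genes of like baseMean. Of 60 other replication genes tested, 0 passed, 22 were above 0, and the median was -0.13, or -0.00 relative to genes of like baseMean. The mitotic genes with the highest baseMean were Hmgb2, a chromatin protein (-0.24 ± 0.18), the tubulin Tubb4b (-0.18 ± 0.18) and the condensin subunit Smc4 (-0.13 ± 0.19) in the authors' deposited table. The replication genes with the highest baseMean were the origin recognition subunit Orc4 (-0.28 ± 0.18), the histone mRNA-binding Slbp (-0.22 ± 0.21) and the chromatin ATPase Atad2 (-0.42 ± 0.23) in the authors' deposited table. CHR letters occurred in 68.5% of the promoters of 54 other mitotic genes and 23.4% of those of 47 other replication genes. E2F letters occurred in 11.1% of the mitotic and 31.9% of the replication promoters.

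The regulators that brake the cycle or control its genes had 0 calls as well. Cdkn1a, which encodes the CDK inhibitor p21, had a baseMean of 10497 and stood at -0.02 ± 0.18, with adjusted p = 0.983 per the authors' deposited table. The antiproliferative genes Btg1 and Btg2 stood at 0.11 ± 0.14 and 0.22 ± 0.16 per the authors' deposited table. Of 15 p53 targets and antiproliferative genes, which include Cdkn1a, 0 passed, with a median of -0.02 as deposited (7 above 0 and 8 below) and of 0.24 relative to genes of like baseMean (11 above and 4 below). The 9 CDK inhibitors and pocket proteins tested had a median of -0.02 on both scales. Of these 0 passed, with the p130 gene Rbl2 at -0.42 ± 0.16 (adjusted p = 0.178) and the retinoblastoma gene Rb1 at -0.09 ± 0.21 per the authors' deposited table. Rbbp4, a histone chaperone of the MuvB core, stood at -0.59 ± 0.18, with adjusted p = 0.0878 per the authors' deposited table. Lin54, the MuvB subunit that contacts CHR elements, stood at -0.50 ± 0.23 and the repressive E2F gene E2f4 at -0.39 ± 0.21 in the authors' deposited table. Of 14 E2F, DREAM and MuvB genes 0 passed, with a median of -0.02 as deposited and of 0.07 relative to genes of like baseMean. Of 16 genes of the anaphase-promoting complex and its inhibitors 0 passed, with a median of -0.28 as deposited and of -0.09 relative to genes of like baseMean. Anapc5, Anapc2 and Anapc1, which encode subunits and had the highest baseMean, stood at -0.32 ± 0.17, -0.35 ± 0.19 and -0.22 ± 0.18 in the authors' deposited table. Of 14 MYC network and growth genes 0 passed, with a median of -0.20 as deposited and of 0.02 relative to genes of like baseMean, where 9 lay above and 5 below. Those with the highest baseMean were the MYC antagonist Mxd1 (-0.38 ± 0.19), the polyamine enzyme Odc1 (0.22 ± 0.15) and nucleolin, Ncl (-0.20 ± 0.14), in the authors' deposited table.

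Levels per kb of exon, as baseMean over all 4 libraries, were highest in G1 entry and lowest in G2/M genes. The median was 200 for G1 entry, 77.6 for G1/S and 31.5 for G2/M members. Ccnd2, at 802, was followed by Pcna at 612, Stmn1 at 383 and Cdk4 at 319. The mitotic genes after Stmn1 were Ccnb2 at 117, Cdc20 at 79.5 and Top2a at 72.4, with Mki67 at 33.6 and Cdk1 at 22.0. The lowest were Ccne1 at 4.20, Cenpf at 5.63 and E2f2 at 7.53. No spread over samples is given for these levels, so neighbours in the order cannot be told apart, and exonic length is the union of all annotated transcripts. Pcna, Ccnb2 and Ccnd3 have named pseudogenes in the table, at a baseMean of 15.4 or less, to which some of their reads may have been assigned.

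**Figure D5:**
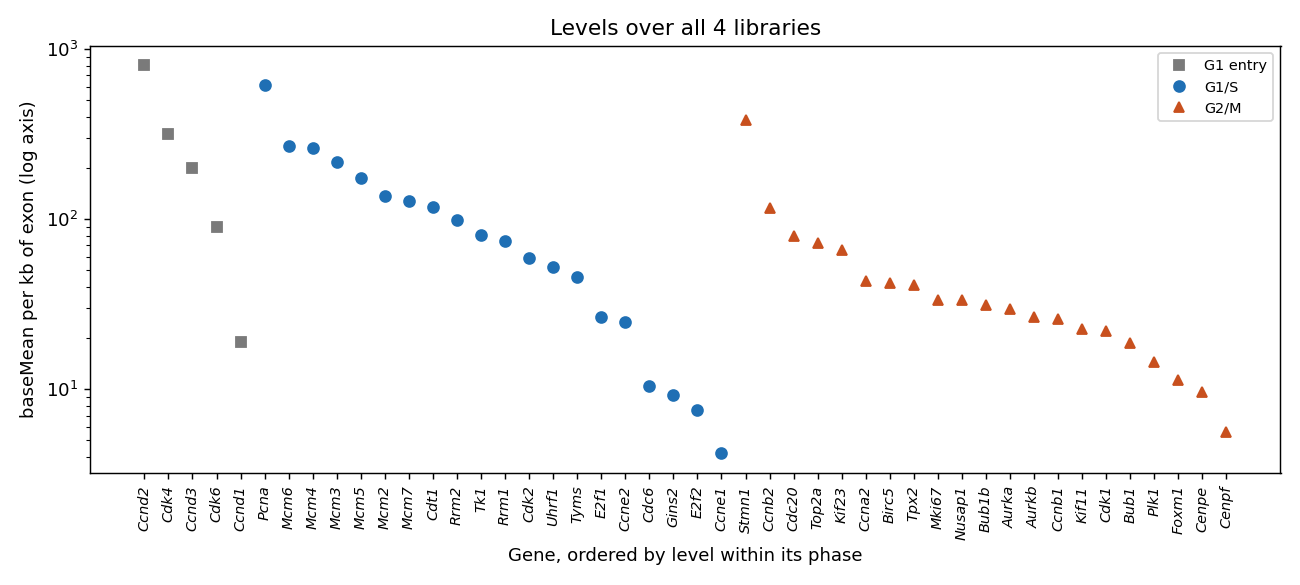
Level of each member as baseMean per kb of exon (y axis, log), ordered within its phase (x axis). The highest are Ccnd2 at 802, Pcna at 612 and Stmn1 at 383, and the lowest is Ccne1 at 4.20.

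The libraries carried the markers of ILC2s, and transcripts listed as markers of other lung cells beside them. All 16 ILC2 markers were tested and had values below 0, with a median log2 fold change of -0.33 and summed implied means of 212532 in KO and 249282 in WT. Their median relative to genes of like baseMean was -0.09, with 6 above and 10 below, and 0 passed the test. The highest were Id2 and Rora, at a baseMean of 43668 and 41644. Of the 10 fibroblast genes, led by Col3a1 and Fn1, 10 had values above 0, with a median of 0.74 and summed means of 9599 in KO and 5650 in WT. Of 9 lung epithelial genes tested, led by Sftpc and Sftpa1, 8 did, with a median of 0.73. Sums over all 10 listed epithelial genes were 14531 in KO and 8635 in WT. The erythroid list, led by Hba-a1 and Hbb-bs, had 5 of 7 tested above 0 and a median of 0.63. Its sums over all 8 listed genes were 8259 in KO and 5386 in WT. Median standard errors were 1.11 for fibroblast, 1.00 for epithelial and 1.08 for erythroid genes, and 0 of these genes passed the test. Values were also above 0 in 7 of 8 endothelial genes, 12 of 12 macrophage and monocyte genes and 9 of 12 B and plasma cell genes. Among the genes of these lists 0 passed the test. Their sums were closer, at 3706 in KO and 2998 in WT for 8 endothelial genes (Pecam1 and Vwf leading) and 11132 in KO and 9853 in WT for 12 macrophage and monocyte genes (Lyz2 and Chil3). B and plasma cell genes (Xbp1 and Ighm) summed to 8364 in KO and 7899 in WT over 12 genes. Xbp1 and Ighm had a baseMean of 2471 and 2421, against a median of 52.9 in that list. Of 11 T cell genes tested, led by Trbc1 and Trbc2, 4 were above 0, with a median of -0.26. Sums over all 12 listed T cell genes were 5840 in KO and 8031 in WT. Trbc1, Trbc2 and Cd3g had a baseMean of 2938, 2525 and 963, against a median of 51.8 in the T cell genes tested. These few genes weigh most in the sums of the 2 lists. The medians relative to genes of like baseMean were 0.91 for fibroblast, 0.88 for epithelial, 0.64 for erythroid, 0.51 for endothelial, 0.28 for macrophage and monocyte, 0.66 for B and plasma cell and -0.34 for T cell genes. In the authors' deposited table Cd3g, 1 of them, passed the test as lower, at -0.96 ± 0.24 with adjusted p = 0.0292. No marker was listed at 0. Whether transcripts of a listed marker came from that cell type or from the ILC2s themselves was not tested. Other cells can also divide, and their part in the values of the cell cycle genes was not tested. In bulk libraries fewer cells in cycle and less RNA per cycling cell cannot be told apart.

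The call of 0 members did not depend on the settings tried. It was 0 of 46 with an adjusted p under 0.1 (1.59% of all genes called), with no filter on baseMean (0.0594%), with centring on abundant genes (1.18%) and relative to genes of like baseMean (0.109%). It was 0 of 42 with a baseMean of at least 50 (0.322%) and 0 of 6 with a baseMean of at least 1000 (0.685%). The threshold of 0.1 could not change the count, since the smallest deposited adjusted p of a member was 0.200. At shares this low over all genes, a count of 0 in a set of this size says little about the members.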

How the data were processed

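RNA of 4 pooled samples, 2 KO and 2 WT, was extracted with Trizol, copied to full-length cDNA with a SMART-Seq HT kit and made into libraries with a TruePrep kit, per the labels' protocols. The submitters' processing notes name HISAT2, Cufflinks and mm10 and give no roles. How reads were counted, annotated and filtered is not given in the sources used here. The authors deposited baseMean, a signal averaged over the libraries. For each gene they also deposited a log2 fold change, the error of it, the statistic tested (a score) and p-values before and after adjustment. The column headings match DESeq2 output, per the file headers. The 8 columns of values per library match no label and were not used, so depth per library, values per sample, refits and leave-one-out fits were not analysed here.

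The statistic equalled the fold change over its error within 5.35e-08, and Benjamini-Hochberg adjustment over the 19193 genes came within 3.96e-05 of the deposited adjusted p. Signs were turned to KO over WT. Adjustment and the running median over genes of like baseMean were tested on simulated data. GENCODE M21 (mm10) gave positions and exonic lengths, and RefSeq gave promoters. Intervals are normal 95% intervals from the deposited standard error and cover the error of the authors' fit. All 46 members are named, and of other lists the 3 genes of highest baseMean and any past the threshold, or the 2 of highest baseMean for marker lists, beside Nrp1 and Cd3g, with Cd3g named after its value was seen. Members and lists were chosen with earlier results of these data known. Nothing in the labels says whether pools of a genotype were prepared apart. The p-values rest on the errors of the authors' fit to 2 pools of each genotype, and cover no spread beyond those pools. Python 3.11.15, pandas 2.3.3, numpy 2.4.6 and scipy 1.17.1 were used.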

Additional observations from a re-analysis of the deposited data

How the results depend on the processing

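No paired analysis was possible because the columns of values per library match no sample label and so carry no replicate number, and for the same reason leave-one-out fits and refits of counts were not run. Across all alternatives run, 0 members passed the test, with member adjusted p between 0.166 and 1.00. The filters on baseMean and the threshold of 0.1 leave each log2 value as deposited, so they bear on calls and not on direction. The 2 settings that shift values turned 11 and 12 members. Centring on genes whose baseMean reached 1000 turned, with log2 values in brackets, Cdk6 (0.10), Mcm6 (0.050), Cdt1 (0.18), Rrm1 (0.0090), Rrm2 (0.19), Tyms (0.037), Tk1 (0.17), Cdk2 (0.072), Ccna2 (0.11), Kif23 (0.18) and Stmn1 (0.25). Relative to genes of like baseMean, these turned: Cdk6 (0.086), Mcm6 (0.037), Cdt1 (0.089), Gins2 (-0.46), Rrm2 (0.058), Tk1 (0.086), E2f2 (-0.16), Ccne1 (-1.59), Ccne2 (-0.090), Plk1 (-0.23), Kif23 (0.11) and Stmn1 (0.21). Both settings shift values by construction. Over the settings the phase median ran between 0.25 and 0.56 for G2/M and between -0.20 and 0.12 for G1/S members, with a turn of sign for G1/S, where 0.56 and 0.12 are the centred values, a setting chosen for these medians after the data were seen. Precision is lowest for the G2/M genes, with a median standard error of 0.59 against 0.32 for G1/S members. An interval within 2-fold either way was found for 2 of 21 G2/M and 12 of 20 G1/S members, a count that also depends on the fold change. Abundance goes with this, since the median baseMean was 135 for G2/M and 369 for G1/S members. The median ratio of the error to that of genes of like baseMean was 1.07 for G2/M and 1.02 for G1/S members.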
